A study of Mus musculus with 4 samples.

Results

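The 10 genes described here encode the inducible parts of the proteasome and the proteins that carry its peptides to MHC class I molecules. They were chosen by name, and all 10 of 10 were found among the 20308 genes of the deposited tables. The set holds the immunoproteasome subunits Psmb8, Psmb9 and Psmb10, the proteasome activator subunits Psme1 and Psme2, the peptide transporter chains Tap1 and Tap2, and the endoplasmic reticulum proteins Tapbp, Erap1 and Calr. All 10 passed the filter on low counts and entered the test across 15097 genes.

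RNA had been sequenced from microglia, the resident macrophages of the brain, isolated from mice at postnatal day 11. There were 2 libraries labelled Pd1cKO-Cx3 (replicates 2 and 3), a conditional knockout, by its name, of Pdcd1, which encodes the inhibitory receptor PD-1, and 2 Pd1fl/fl libraries (replicates 1 and 2), in which that gene is floxed. Which Cre line "Cx3" stands for, and whether controls also had it, is not in the labels. Nor do they give the number of animals behind a library, so the spread measured by the p-values may be technical.

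Every nucleated cell shows samples of its own proteins on MHC class I. The proteasome cuts proteins into peptides, the TAP1-TAP2 transporter moves them into the endoplasmic reticulum, ERAP1 trims them, and tapasin and calreticulin hold the class I molecule ready until a peptide fits. Interferons are known to replace the standard catalytic subunits by PSMB8, PSMB9 and PSMB10 and to raise the transporter. Microglia in a healthy brain are known to keep this pathway low and to raise it in inflammation.

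Before the members, the targeted gene and the libraries were examined. Pdcd1 had 12.6 and 9.94 CPM (counts scaled to a common library total) in replicates 2 and 3 labelled Pd1cKO-Cx3, against 0 and 2.89 CPM in Pd1fl/fl replicates 1 and 2. The log2 fold change of Pdcd1 was 2.95 ± 1.48 (SE, edgeR quasi-likelihood test, adjusted p = 0.695), and 1.94 to 10.42 with a library left out. The direction of the targeted gene thus went against the labels, but the difference did not pass the test across all genes. Counts per gene do not show which of its exons were read. Whether the labels are right was not tested, and every direction below follows the labels as given. Totals ran from 14258420 to 15908954 counts per library. Mitochondrial genes took 1.48% and 1.6% of counts in libraries labelled Pd1cKO-Cx3 and 1.23% and 1.02% in Pd1fl/fl. Xist was counted only in Pd1fl/fl replicate 1, which also lacked the Y-linked Ddx3y, so 1 control differed from the other 3 libraries in sex-linked expression. The 8 microglial markers summed to 51555 and 49706 CPM in libraries labelled Pd1cKO-Cx3, against 58646 and 56800 CPM in Pd1fl/fl. Markers of other cells were far lower in sum, but several were higher in libraries labelled Pd1cKO-Cx3. Border-associated macrophage markers summed to 721 and 713 CPM in libraries labelled Pd1cKO-Cx3 against 446 and 545 CPM in Pd1fl/fl, with 7 of 8 above both controls. The 8 endothelial markers summed to 137 and 109.6 CPM against 98.9 and 66.7 CPM, and the 8 mural and fibroblast markers to 166 and 160.5 CPM against 97.2 and 49.8 CPM. In each list 5 of 8 were above both controls, an order found in 21.3% of all genes tested. Notch3 and Anpep were at 0 in both controls, with 19 and 121 reads and 12 and 11 reads in libraries labelled Pd1cKO-Cx3. Tie1 had 162 and 64 reads in those libraries against 0 and 6 in the controls. Notch3, Anpep and Tie1 passed the filter on low counts only through libraries labelled Pd1cKO-Cx3, which fixed their order and sign. The counts of 5 of 8 include them and so cannot be set against the share over all genes. Log2 fold changes were positive in 6 of 8 endothelial and 7 of 8 mural and fibroblast markers. The others were Pecam1 (-0.32), Tek (-0.67) and Cspg4 (-1.59), and Cspg4 lay below both controls. Lymphocyte markers summed to 7.715 and 4.65 CPM against 0 and 0.135 CPM. Of their 7 genes, Cd3e, Cd3g, Cd8a and Nkg7 were in no table, and Cd4 and Ms4a1 were at 0 in both controls. The 5 of 6 monocyte and neutrophil markers in the tables summed to 84.2 and 71.03 CPM against 39.7 and 24.98 CPM. Plac8 alone made 71.1 and 67.35 CPM of these sums against 16.9 and 17.3 CPM, and it was the 1 gene with a positive log2 fold change among the 4 tested (median -0.53). The 8 neural markers summed to 751 and 309 CPM against 483 and 262 CPM, and the groups overlapped in this sum. Mbp alone made 611 and 224 CPM of it against 404 and 201 CPM. Of the 8 neural markers, 7 had a positive log2 fold change (median 0.94), and 3 lay above both controls. Dendritic cell markers summed to 2286.5 and 2106.5 CPM against 2411.7 and 2354.5 CPM. Siglech alone made 2274.2 and 2091.3 CPM of these sums against 2392.6 and 2341.9 CPM, so they follow 1 gene and do not measure dendritic cells. Zbtb46, the next highest, had 10.4 and 13.9 CPM against 17.7 and 11 CPM, and Cd209a was at 0 in both controls. The part of these cells in the differences below was not tested, and in bulk RNA fewer cells of a type and less RNA per cell cannot be told apart.

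Most members were higher in libraries labelled Pd1cKO-Cx3, by amounts that did not pass the test across all genes. Of the 10, 9 had a positive log2 fold change, where 50.7% of all genes tested did. The median was 0.43 on the log2 scale over the 10 members and 0.01 over all 15097 genes tested. In 8 members both libraries labelled Pd1cKO-Cx3 lay above both Pd1fl/fl libraries, an order found in 21.3% of all genes tested and in 22.6% of those over 20 CPM. None of the 10 passed edgeR's quasi-likelihood test after Benjamini-Hochberg adjustment over all genes, at adjusted p from 0.553 to 0.965, where 0.0397% of genes did. At an unadjusted p under 0.05, 3 members were higher in libraries labelled Pd1cKO-Cx3, namely Psmb9, Psme1 and Tap1, against 4.97% of all genes on that side. DESeq2 likewise called 0 of the 10 (1.54% of all genes), with 2, Tap1 and Psmb9, higher at an unadjusted p under 0.05 (5.41% of all genes on that side). The members were chosen as a pathway with earlier results of these libraries known, so these shares describe them and test nothing.

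**Figure D1:**
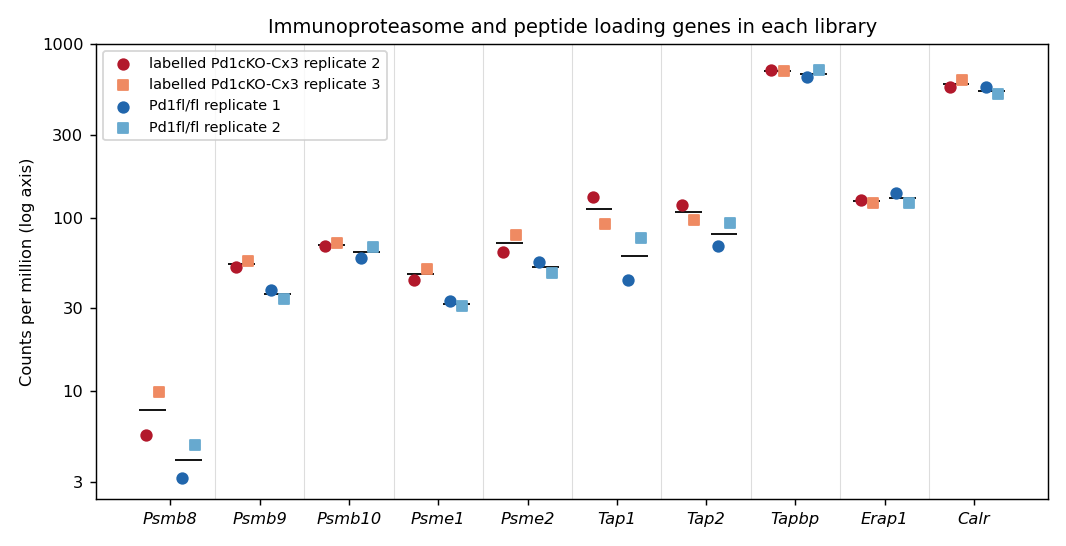
Expression of the 10 genes in each of the 4 libraries, in CPM on a log axis; short bars are group means of 2 libraries. The 2 libraries labelled Pd1cKO-Cx3 lie above both Pd1fl/fl libraries in 8 genes, and the groups overlap in Tapbp and Erap1.

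Among the genes, 4 lie side by side in the MHC region. In the deposited coordinates, read as GRCm38, Psmb9, Tap1, Psmb8 and Tap2 occupy 34.3 kb of chromosome 17, from 34181988 to 34216321, and Tapbp ends 253 kb before them. Psme1 (chromosome 14, 55578123 to 55581529) and Psme2 (chromosome 14, 55587441 to 55591113) are also neighbours, with 5911 bases between them. Psmb10 and Calr lie far apart on chromosome 8 and Erap1 on chromosome 13.

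Tap1 and Psmb9 are transcribed in opposite directions from starts with 225 bases between them in RefSeq's GRCm38.p6 annotation, so that stretch is upstream of both, although the longer annotated spans of the genes overlap. It is shown because this pair shares its upstream DNA while their libraries ranked differently, as the values below give. It is read 5′ to 3′ on the forward strand (chr17:34187331-34187555), with Psmb9 starting just before its first base on the reverse strand and Tap1 just after its last. Capitals mark a GC box (GGGCGG on either strand), 176 to 171 bases before the Tap1 start.
Tap1 and Psmb9 shared stretch: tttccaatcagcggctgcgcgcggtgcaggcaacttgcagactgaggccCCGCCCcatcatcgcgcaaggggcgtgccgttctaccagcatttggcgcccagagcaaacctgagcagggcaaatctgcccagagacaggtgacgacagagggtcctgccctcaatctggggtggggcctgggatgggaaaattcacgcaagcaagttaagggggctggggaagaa

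RefSeq promoter windows, from 250 bases before to 50 after a start, were found for 9 of the 10 members and searched on both strands for 5 motifs. The letters GAAA and GAAA with 2 bases between, an interferon-stimulated response element, stood in the windows of Psme1 and Erap1 and in 3.43% of 32817 mouse windows. A gamma-activated site (TTCNNNGAA) stood in that of Psmb8 and in 8.29% of windows, and none of the 9 held GGGA and TTCC with 2 bases between, an NF-kB site present in 1.47%. The GC box stood in 7 of the 9 and in 35.6% of windows. The ER stress response element, CCAAT and CCACG with 9 bases between, stood in that of Calr and in 0.119% of windows. These are matches of letters in a short window. The GC boxes of Tap1 and Psmb9 are the same 6 bases, read in both windows. The 3 interferon-type sites are shown with 30 bases each, on the genes' own forward strand, with the motif in capitals. Relative to the start they lie at 10 to 19 (Psme1), -4 to 6 (Erap1) and -97 to -89 (Psmb8). Whether these matches bear on the values of the 3 genes was not tested.
Psme1 site (chr14:55578493-55578522): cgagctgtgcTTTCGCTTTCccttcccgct
Erap1 site (chr13:74639839-74639868): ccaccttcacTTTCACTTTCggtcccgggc
Psmb8 site (chr17:34198088-34198117): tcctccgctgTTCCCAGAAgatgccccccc
The 250 bases before the start of Calr (chr8:84846932-84847181, reverse strand) are shown for contrast, as those of a chaperone gene, with the ER stress response element in capitals.
Calr upstream: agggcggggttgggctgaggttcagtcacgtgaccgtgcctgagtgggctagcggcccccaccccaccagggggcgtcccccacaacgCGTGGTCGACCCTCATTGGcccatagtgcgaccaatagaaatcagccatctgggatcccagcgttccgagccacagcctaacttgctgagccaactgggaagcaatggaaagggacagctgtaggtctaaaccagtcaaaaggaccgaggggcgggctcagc

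**Figure D2:**
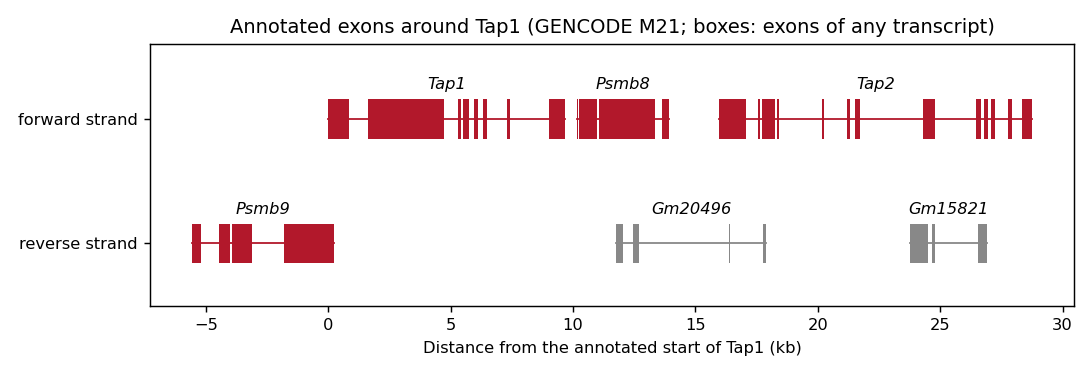
Annotated exons (boxes) of the 4 neighbouring genes and of 2 noncoding genes in grey, by distance in kb from the annotated start of Tap1; the upper row is the forward strand and the lower row the reverse strand. Exons of Psmb9 reach across the Tap1 start, and exons of Gm20496 face those of Psmb8 and Tap2.

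The immunoproteasome subunits replace the standard catalytic subunits of the 20S core, PSMB9 in place of PSMB6, PSMB8 in place of PSMB5 and PSMB10 in place of PSMB7. Psmb9 had 52.2 and 55.98 CPM in replicates 2 and 3 labelled Pd1cKO-Cx3, against 38.4 and 33.9 CPM in Pd1fl/fl replicates 1 and 2. The groups were apart, and the libraries within each group differed by at most 1.13-fold. The means were 54.1 ± 2.64 CPM and 36.1 ± 3.21 CPM (SD, n = 2 each), a difference of 0.57 ± 0.20 on the log2 scale (SE, edgeR adjusted p = 0.553). Among the 10 members this gene had the smallest unadjusted p, 0.0296 in the same edgeR fit. Psmb8 was counted far less, with 80 and 153 reads in replicates 2 and 3 labelled Pd1cKO-Cx3, against 50 and 73 reads in Pd1fl/fl replicates 1 and 2. In CPM these were 5.61 and 9.88 against 3.14 and 4.91, so the groups were apart but the lower labelled Pd1cKO-Cx3 library stood only 1.14-fold above the higher control. The exact 95% Poisson intervals of these neighbouring libraries, 4.45 to 6.98 CPM and 3.85 to 6.18 CPM, overlapped, and cover counting error only. Its log2 fold change of 0.93 was the highest of the 10, with the widest error (SE 0.55, edgeR adjusted p = 0.756), and leaving out a library moved it between 0.48 (replicate 3 labelled Pd1cKO-Cx3 left out) and 1.29 (replicate 2 of either group left out). Psmb10 had 68.7 and 70.96 CPM against 58.8 and 67.7 CPM, a gap between the groups of 1.02-fold. Its log2 fold change was 0.14 ± 0.17 (SE, edgeR adjusted p = 0.927), with the nearest libraries closer together than the 2 controls. It was 0.03 without Pd1fl/fl replicate 1 and 0.24 without Pd1fl/fl replicate 2.

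The 3 standard subunits had a median log2 fold change of -0.16, with none above both controls. Psmb5 had 18.5 and 19.9 CPM in libraries labelled Pd1cKO-Cx3 against 19.4 and 17.4 CPM in Pd1fl/fl, and the groups overlapped. Psmb6 and Psmb7 lay below both controls in both libraries labelled Pd1cKO-Cx3, an order found in 18.8% of all genes tested. Their log2 fold changes were -0.18 ± 0.20 and -0.16 ± 0.18 (SE, edgeR adjusted p = 0.902 for each).

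A ratio of an immune subunit to its standard counterpart within 1 library does not depend on library scaling. Per base of the principal annotated transcript, Psmb9 stood at 0.735 and 0.774 times Psmb6 in replicates 2 and 3 labelled Pd1cKO-Cx3, against 0.506 and 0.396 times in Pd1fl/fl replicates 1 and 2. The nearest libraries of the groups were well apart in this ratio. Psmb8 stood at 0.167 and 0.274 times Psmb5 in libraries labelled Pd1cKO-Cx3, against 0.0894 and 0.156 times in Pd1fl/fl, and the nearest libraries of the groups almost met. Psmb10 stood at 1.1 and 1.16 times Psmb7 against 0.807 and 1.04 times. On the log2 scale the group differences were 0.75, 0.86 and 0.30 in the order Psmb9, Psmb8 and Psmb10. Psmb8 over Psmb5 was 0.46 without Pd1fl/fl replicate 1 and 0.50 with replicate 3 labelled Pd1cKO-Cx3 left out. Psmb10 over Psmb7 was 0.11 without Pd1fl/fl replicate 1 and 0.48 without Pd1fl/fl replicate 2. All 3 pairs were apart between the groups, which gives the smallest two-sided exact permutation p that 2 against 2 libraries allow, 0.333 (0.444 adjusted over the 4 ratios tested), so this design cannot reach 0.05.

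**Figure D3:**
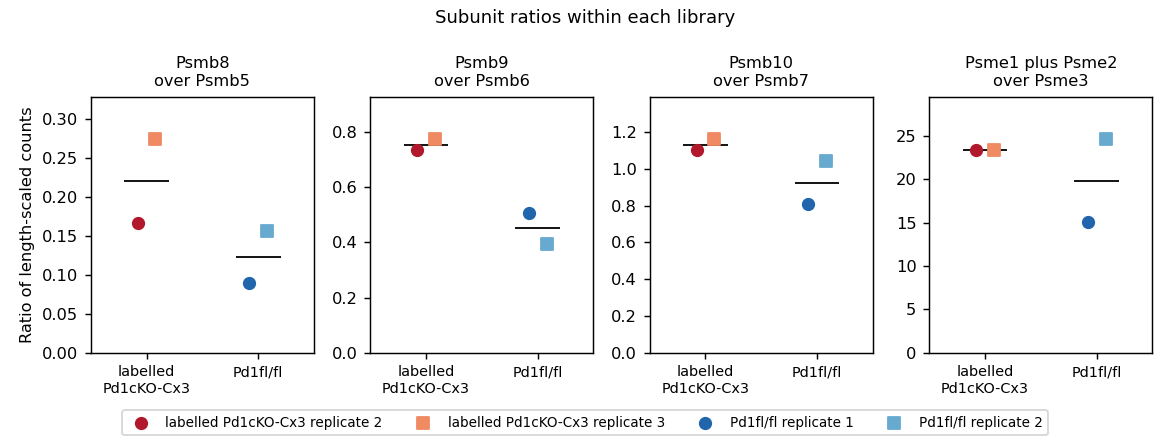
Ratios of length-scaled counts within each library, with the libraries labelled Pd1cKO-Cx3 on the left of each panel and Pd1fl/fl on the right; bars are means of 2 libraries and each axis starts at 0. The groups are apart in the 3 catalytic pairs and overlap in the activator panel.

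Psme1 and Psme2 encode the alpha and beta subunits of the 11S activator PA28, a ring that caps the proteasome core and speeds the release of short peptides. Psme1 had 43.9 and 50.4 CPM in replicates 2 and 3 labelled Pd1cKO-Cx3, against 33.1 and 30.8 CPM in Pd1fl/fl replicates 1 and 2. The nearest libraries of the 2 groups differed 1.33-fold, more than the replicates of either group differed from each other. Its log2 fold change was 0.55 ± 0.21 (SE, edgeR adjusted p = 0.598, unadjusted p = 0.0414). Psme2 had 63.3 and 79.7 CPM against 55.4 and 48 CPM, or 0.46 ± 0.20 higher on the log2 scale (SE, edgeR adjusted p = 0.653), and 0.29 with replicate 3 labelled Pd1cKO-Cx3 left out. Both subunits ranked the 4 libraries alike, with the library labelled Pd1cKO-Cx3 replicate 3 highest and Pd1fl/fl replicate 2 lowest. Per length, Psme1 stood at 0.6 and 0.547 times Psme2 in libraries labelled Pd1cKO-Cx3 and at 0.517 and 0.554 times in Pd1fl/fl, and the groups overlapped. Psme3, the gamma subunit, which forms a nuclear activator of its own, had 12 and 14.6 CPM against 15.5 and 8.42 CPM. The ratio of Psme1 plus Psme2 to Psme3 was 23.4 in each library labelled Pd1cKO-Cx3 and 15.1 and 24.6 in Pd1fl/fl replicates 1 and 2. That is a log2 difference of 0.28 with overlapping groups (two-sided exact permutation p = 1), and without Pd1fl/fl replicate 1 it was -0.07.

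The Psme2 values carry a doubt of read assignment. Of the distinct 50-base words in its annotated transcripts, 28.3% also occur in Psme2b, an intronless copy on chromosome 11 (48945354 to 48946190). Psme2b itself had 42.4 and 52.4 CPM in libraries labelled Pd1cKO-Cx3 against 37.1 and 42.5 CPM in Pd1fl/fl, so the groups overlapped there. With both genes summed the log2 fold change was 0.37 (edgeR adjusted p = 0.659). Psme1 shared 5.47% of such words with other genes, Tapbp 2.87%, and the remaining 7 members less than 1%.

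Tap1 and Tap2 encode the chains of the transporter that brings peptides from the cytosol into the endoplasmic reticulum. Tap1 had 132 and 91.8 CPM in replicates 2 and 3 labelled Pd1cKO-Cx3, against 43.8 and 76.7 CPM in Pd1fl/fl replicates 1 and 2. The groups were apart, yet the 2 controls differed 1.75-fold from each other and the nearest libraries of the groups only 1.2-fold. Its means of 111.9 ± 28.4 CPM and 60.3 ± 23.3 CPM (SD, n = 2 each) differed by 0.88 ± 0.32 on the log2 scale (SE, edgeR adjusted p = 0.572, unadjusted p = 0.0348). The value leaned on Pd1fl/fl replicate 1, at 0.53 without it and 1.35 without Pd1fl/fl replicate 2. With replicate 2 labelled Pd1cKO-Cx3 left out it was 0.60, and with replicate 3 of that label left out 1.13. Tap2 had 117.8 and 96.5 CPM in libraries labelled Pd1cKO-Cx3 against 68.8 and 92.6 CPM in Pd1fl/fl, or 0.40 ± 0.21 higher on the log2 scale (SE, edgeR adjusted p = 0.717). Here leaving out a library moved the value from 0.20 (without Pd1fl/fl replicate 1) to 0.63 (without Pd1fl/fl replicate 2), and with replicate 2 labelled Pd1cKO-Cx3 left out it was 0.25.

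Both transporter genes ranked the libraries alike, the one labelled Pd1cKO-Cx3 replicate 2 highest and Pd1fl/fl replicate 1 lowest. Psmb9 ranked replicate 3 of that label highest and Pd1fl/fl replicate 2 lowest, as did Psme1, Psme2 and Calr. The Psmb9 libraries within a group differed by at most 1.13-fold. Psmb8 and Psmb10 also had replicate 3 of that label highest, with Pd1fl/fl replicate 1 lowest. Per length, Tap1 stood at 1.31 and 1.11 times Tap2 in libraries labelled Pd1cKO-Cx3 and at 0.742 and 0.966 times in Pd1fl/fl, so the groups were apart in this ratio, which was not tested.

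The 3 genes that act inside the endoplasmic reticulum had small log2 fold changes, as did Psmb10. Tapbp encodes tapasin, which bridges TAP and the empty class I molecule, and had 709 and 694.5 CPM in libraries labelled Pd1cKO-Cx3 against 643 and 709 CPM in Pd1fl/fl. Its groups overlapped, its log2 fold change was 0.05 ± 0.09 (SE, edgeR adjusted p = 0.965), and the sign turned without Pd1fl/fl replicate 1 (-0.03). Erap1, the aminopeptidase that trims peptides to the length class I can bind, had 126.5 and 121.8 CPM against 139 and 121 CPM. It was the only member with a negative log2 fold change, -0.08 ± 0.14 (SE, edgeR adjusted p = 0.958), and this became 0.02 without Pd1fl/fl replicate 1. Calr encodes calreticulin, a lectin chaperone of many glycoproteins besides class I, and had 563.5 and 620.1 CPM against 561.9 and 516.8 CPM. Its groups nearly touched, and they overlapped when library sizes were scaled by TMM factors. The log2 fold change was 0.12 ± 0.10 (SE, edgeR adjusted p = 0.843), between 0.06 (replicate 3 labelled Pd1cKO-Cx3 left out) and 0.19 (replicate 2 of that label left out). Their standard errors of 0.09 to 0.14 were the smallest of the 10, and each was counted in at least 1798 reads in every library.

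Set against transcript length, the members spanned a wide range of levels. Calr had 237 to 284 RPKM (reads scaled to the length of the principal transcript and to the library total) over the 4 libraries and Tapbp 222 to 245 RPKM, ranges that overlap. Psme2 followed at 49.9 to 82.8, and from there to Psmb10, Psme1, Psmb9, Tap1, Tap2 and Erap1 (21.4 to 24.7 RPKM) each gene's range overlapped the next. Psmb8 was apart from the rest at 1.93 to 6.07 RPKM, against 25.1 to 41.4 RPKM for Psmb9, its partner in the immunoproteasome. Averaged by group, Psmb8 had 4.76 ± 1.85 RPKM in libraries labelled Pd1cKO-Cx3 and 2.48 ± 0.769 RPKM in Pd1fl/fl (SD, n = 2 each).

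Exons of other genes cover part of several members, and the sources used here do not give how reads there were counted or whether strand was used. Of the principal transcript of Psmb8, 11.4% faces exons of the antisense gene Gm20496, and 15.7% of that of Psmb9 and 7.18% of that of Tap1 face each other. The share was 19.8% in Tap2, of which 15% faces the noncoding gene Gm15821 and 4.79% Gm20496. It was 23.5% in Tapbp, facing the antisense gene Gm19412, and 14.8% in Erap1, facing Cast. Psmb10, Psme2 and Calr had no such overlap, and Psme1 1.17%. Gm20496 and Gm19412 were in none of the tables. Gm15821 had 13 and 8 reads in libraries labelled Pd1cKO-Cx3 against 0 and 6 reads in Pd1fl/fl. Cast had 45.2 and 39.7 CPM in libraries labelled Pd1cKO-Cx3 against 35.7 and 26.5 CPM in Pd1fl/fl.

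The wider pathway was described from lists of genes with the same test. Among 16 other 20S core and assembly genes, 14 had positive log2 fold changes, with a median of 0.13 and none called, and Psma5 (0.44), Psma4 (0.22) and Psma2 (0.24) had the smallest p. The 18 genes of the 19S regulatory particle had a median of 0.10, with 11 positive, none called and 3 at an unadjusted p under 0.05. These were Psmd3, with 88.5 and 89.8 CPM in libraries labelled Pd1cKO-Cx3 against 63.7 and 39.9 CPM in Pd1fl/fl, Psmd8 (log2 fold change 0.37) and the ubiquitin receptor gene Adrm1 (0.35). Of the 3 other activator and inhibitor genes none was called (median 0.14). Among 11 further loading factors and chaperones the median was 0.13, with 9 positive and none called. Pdia3, the disulphide isomerase partner of tapasin, had 2819 and 3038 CPM against 2537 and 2583 CPM, a difference of 0.19 ± 0.07 on the log2 scale (SE, edgeR adjusted p = 0.572). The further disulphide isomerase genes Pdia4 and P4hb had log2 fold changes of -0.25 and 0.17, neither called. The 7 cytosolic peptidases had a median of 0.04. Of these Lap3, a leucine aminopeptidase known to be induced by interferon, had 162 and 184 CPM in libraries labelled Pd1cKO-Cx3 against 115.7 and 106 CPM in Pd1fl/fl. Its log2 fold change of 0.63 ± 0.14 (SE) was not called by edgeR (adjusted p = 0.446), while DESeq2 gave an adjusted p of 0.0216.

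The class I chains, onto which the peptides are loaded, had log2 fold changes of 0.65 (B2m) to 1.49 (H2-D1). H2-D1 had 1090 and 1486 CPM in libraries labelled Pd1cKO-Cx3 against 461 and 449 CPM in Pd1fl/fl, and the 4 chains had a median log2 fold change of 1.12 with all 4 above both controls, 3 of them at edgeR adjusted p = 0.0959. None of the 4 was called by edgeR, while DESeq2 called all 4 (adjusted p from 1.1e-19 to 0.0102). Among 7 regulators 6 were positive, with a median of 0.26. Nlrc5, which encodes the class I transactivator and acts on Psmb9, Tap1 and B2m besides the heavy chain genes, had 20.8 and 29.8 CPM against 7.61 and 2.96 CPM (log2 fold change 2.24 ± 0.52, SE, edgeR adjusted p = 0.464). The interferon signalling genes Stat2 and Irf9 had log2 fold changes of 1.04 and 0.80. Irf1 and Irf8 had 0.26 and 0.21, Ifnar1, for the type I interferon receptor, 0.01, and Ifngr1, for the interferon gamma receptor, -0.15. None of the 7 was called by edgeR, with adjusted p from 0.362 for Irf9 upward, while DESeq2 called Nlrc5, Stat2 and Irf9 (adjusted p from 0.000458 to 0.0109). Whether the fold changes of the members and of these genes differ from each other was not tested.

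**Figure D4:**
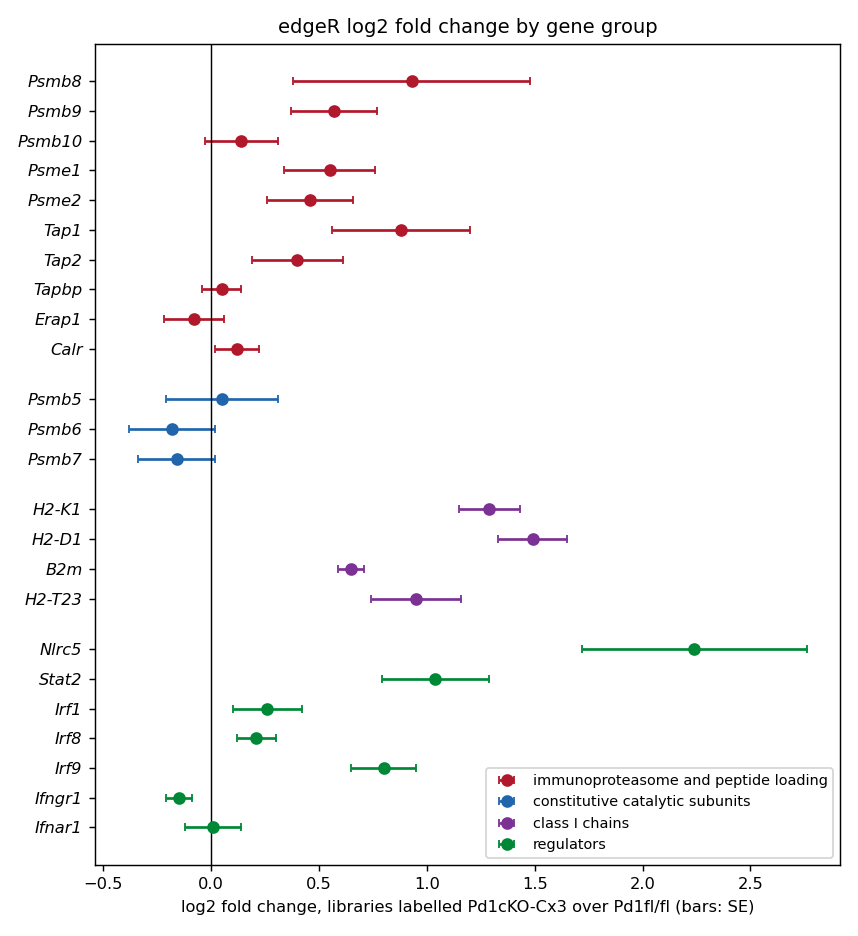
edgeR log2 fold changes of the libraries labelled Pd1cKO-Cx3 over Pd1fl/fl, with standard errors as bars, for the 10 genes, the 3 standard catalytic subunits, 4 class I chains and 7 regulators. The members run from -0.08 in Erap1 to 0.93 in Psmb8, and the class I chains from 0.65 to 1.49.

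The authors' deposited tables compare single libraries, each labelled Pd1cKO-Cx3 library with each control, so their 4 comparisons share libraries. In the authors' deposited tables Tap1 was marked significant in the 2 comparisons against Pd1fl/fl replicate 1, with log2 fold changes of 1.59 and 1.07. Against Pd1fl/fl replicate 2 the authors' deposited tables gave it 0.78 and 0.26. Psmb8 was marked in both comparisons of the library labelled Pd1cKO-Cx3 replicate 3 in the authors' deposited tables, at 1.65 and 1.01, and not in those of replicate 2, at 0.84 and 0.19. None of the other 8 members was marked in any of the 4, and their values in the authors' deposited tables ran from -0.19 for Erap1 to 0.78 for Tap2. Every marked value of a member lay above 1 and every unmarked one below 1. An unmarked member could still have a very small p-value between 2 single libraries. Tap2 at 0.78 was one, with an authors' adjusted p of 2.23e-43 (test not given).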

How the data were processed

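The 4 deposited tables each join 1 library labelled Pd1cKO-Cx3 with 1 Pd1fl/fl library. Raw counts per Ensembl gene were taken from the deposited count columns, per the file headers, each library once, and were identical in both of its tables. A gene absent from both tables of a library was given 0 there, which applied to 3158 of 20308 genes and to no member. In the CPM columns the authors divided each count by its library total and gave a count of 0 the value 0.5, as the values show. The deposited log2 and p-value columns compare single libraries, with the test not given in the sources used here. Tools named, per the submitters' processing notes, are HTSeq 0.6.0, TopHat2 2.0.12 and Bowtie2 2.2.3, with the build mm9. However, 92.1% of 20276 gene identifiers had exactly the GENCODE M21 position on GRCm38, so coordinates are read as GRCm38.

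The group test was that of edgeR 4.0.16 under R 4.3.3 (TMM factors, filterByExpr, quasi-likelihood test, Benjamini-Hochberg over 15097 genes, threshold 0.05). Fold changes are the libraries labelled Pd1cKO-Cx3 over Pd1fl/fl, and the standard error is the log2 fold change divided by the square root of F. Library totals of 14258420 to 15908954 counts set the counting precision. Ratios within libraries used length-scaled counts and a two-sided exact permutation test by full enumeration, and Poisson intervals came from scipy 1.17.1. Alternatives were DESeq2 1.42.0, RLE and upper-quartile factors, no filter, at least 5 CPM in 2 libraries, Psme2 and Psme2b summed, and leaving out each library. The scripts were tested on simulated data. All 10 members are named, with the standard catalytic subunits, class I chains, regulators and up to 3 genes of smallest p in each other list; other genes were chosen after their values were seen. Nrdc was matched as Nrd1. A gene each of the regulator and lymphocyte lists is not reported here and was left out of their counts. Members and lists were chosen with earlier results of these data known.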

Additional observations from a re-analysis of the deposited data

How the results depend on the processing

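None of the 10 members was called by edgeR or DESeq2 under any of the 10 alternatives. The smallest adjusted p of a member was 0.168 (Tap1 in DESeq2), and the median log2 fold change ran from 0.37 to 0.43. Without a library, 8 to 9 members lay above the remaining controls, where 34% to 38.7% of all genes did, and with TMM-scaled library sizes 7 did, against 20.8%. Over all genes, edgeR called 6, against 32 with no filter on low counts, 32 at no less than 5 CPM in 2 libraries and 233 in DESeq2. Leaving out a library gave 4 to 21 calls, 21 without Pd1fl/fl replicate 2. Without Pd1fl/fl replicate 1 the sign turned for Tapbp (-0.03, range -0.03 to 0.12), Erap1 (0.02, range -0.17 to 0.02) and the ratio of Psme1 plus Psme2 to Psme3, which ranged from -0.07 to 0.63. The cause of these turns was not tested. Leaving out a library leaves 1 in its group, and the lone library is then assumed to vary like the other group. Over these fits the log2 fold change ran from 0.49 to 0.66 in Psmb9, from 0.46 to 0.65 in Psme1 and from 0.53 to 1.35 in Tap1. No paired analysis was possible because the labels name no pairs of libraries across the 2 groups. Depth limits Psmb8, with 50 to 153 reads.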
